A study of Mus musculus with 12 samples.

Results

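Lipid droplet coat and lipase genes were followed in mouse liver at 3 ages. The set held 10 genes, taken from a list by gene symbol out of the 53465 gene identifiers in the count table, and all 10 were found and counted. They encode coat proteins of the droplet surface (Plin2, Plin4 and Plin5), proteins that fuse droplets (Cidea, Cideb and Cidec), patatin-like lipases (Pnpla2 and Pnpla3), an inhibitor of lipolysis (G0s2) and a protein of droplet assembly (Fitm1). RNA-seq read counts came from whole liver of C57BL/6N mice, each library taken as 1 animal. Young mice were 3 months old, the middle-aged group 12 months and the aged group 18 months, and each group had 4 livers. No genotype or treatment was given for any group. The study asked how transcription in the liver changes with age. The series' design text counts 3 replicates per age, while 4 libraries per age were analysed, and the described RNA extraction covers young and old livers only, so how the 12 livers were prepared is uncertain.

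Hepatocytes store triglyceride in lipid droplets, which have a neutral lipid core and a single phospholipid layer coated by proteins. Perilipins on that surface restrain lipases, CIDE proteins pass lipid from small to large droplets, and Pnpla2 starts the breakdown of stored triglyceride, with Abhd5 as its co-activator and G0s2 as its inhibitor. Many of these genes are known targets of the nuclear receptors PPAR alpha and PPAR gamma.

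Libraries held 8124312 to 10527159 reads on genes, and synthetic spike-in transcripts took 1.59% to 10.6% of all counts. All 8 hepatocyte markers, albumin among them, were counted in every liver. Transcripts of other tissues stood out in young replicate 3 and middle-aged replicate 3. The summed normalised count of 8 skeletal muscle markers was 768 and 907 there, against 1.79 to 48.7 in the other 10 livers. For 6 adipocyte markers (Adipoq, Plin1, Lep, Cfd, Retn and Adig) the sum was 66.4 and 569 in those livers and 0.963 to 18.4 in the others. Spike-in composition split the livers into sets, replicates 1 and 2 of each age in one and replicates 3 and 4 in the other. Values within these sets are given beside the pooled ones, each from 2 livers per age.

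The promoters of Plin2, Fitm1 and G0s2 are shown because they belong to members that passed the test or came nearest to it. RefSeq (GRCm38.p6) held windows of 300 bases, from 250 before to 50 after the start of transcription, for 9 of the 10 genes. The windows below are chr4:86670010-86670309 (minus strand) for Plin2, chr14:55575424-55575723 (plus strand) for Fitm1 and chr1:193273139-193273438 (minus strand) for G0s2. They are written 5′ to 3′, with capitals marking matches to AGGTCA, the motif read by many nuclear receptors, to the E-box CACGTG or to CCAAT, on either strand.
Plin2: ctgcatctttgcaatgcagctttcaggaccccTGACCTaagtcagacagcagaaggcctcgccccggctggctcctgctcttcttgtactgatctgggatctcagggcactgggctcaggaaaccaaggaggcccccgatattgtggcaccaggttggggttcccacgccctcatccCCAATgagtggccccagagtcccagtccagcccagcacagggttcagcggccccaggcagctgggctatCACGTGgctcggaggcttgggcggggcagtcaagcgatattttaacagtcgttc
Fitm1: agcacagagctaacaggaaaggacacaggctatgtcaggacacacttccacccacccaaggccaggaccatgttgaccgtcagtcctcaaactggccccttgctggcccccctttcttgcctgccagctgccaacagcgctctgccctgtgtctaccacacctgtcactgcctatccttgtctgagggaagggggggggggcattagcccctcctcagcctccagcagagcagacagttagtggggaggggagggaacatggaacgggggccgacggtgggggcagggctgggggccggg
G0s2: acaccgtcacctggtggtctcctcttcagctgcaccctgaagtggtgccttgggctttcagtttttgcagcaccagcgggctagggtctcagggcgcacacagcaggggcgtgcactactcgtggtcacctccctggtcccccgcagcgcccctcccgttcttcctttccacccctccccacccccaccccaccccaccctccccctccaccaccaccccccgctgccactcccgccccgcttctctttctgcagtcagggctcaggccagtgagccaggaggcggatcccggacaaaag
Plin2 held 1 match to each of these motifs, AGGTCA appearing on the opposite strand as TGACCT, while Fitm1 and G0s2 held none. Among 32851 promoter windows of the same length, 16.3% held AGGTCA, 7.15% held CACGTG and 37.4% held CCAAT. Plin5 also held AGGTCA, and Plin4, Plin5 and Pnpla3 held CCAAT. A pair of AGGNCA copies with 1 base between them was found in 0.381% of all windows and TATAAA in 13.6%. Neither Plin2, Fitm1 nor G0s2 held these, and among the members TATAAA was found in Cideb.

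Between young and aged livers, Plin2, Cidea and Fitm1 rose and no member fell. These 3 of 10 genes passed an adjusted p of 0.05 in DESeq2, where 3.58% of all 13527 genes tested did (1.87% higher and 1.71% lower). The median log2 fold change was 1.40 over the 10 genes and 0.0079 over the 11804 genes whose normalised counts averaged 10 or more. Every young liver lay below every aged liver for Plin2, Cidea and Fitm1, and for the other 7 members the groups overlapped. Among those 11804 genes, 4.09% stood higher and 3.81% lower in aged livers without overlap. In whole liver, fewer cells of a type and less RNA per cell cannot be told apart. The calls depended on the test. In edgeR's quasi-likelihood test 172 genes passed and 0 members did (5 at an unadjusted p under 0.05, with Cidea and Pnpla3 too low to be fitted). By limma-voom G0s2 and Fitm1 were called, and the number of all genes called there is not given here. The share of all genes at an unadjusted p under 0.05 was not counted, here or in the comparisons below. The calls also depended on single livers, from 1 member (Fitm1) without aged replicate 3 to 7 without aged replicate 1. Counts of all genes called moved too, with 237 and 1291 in those fits and 484 with all livers. Without young replicate 2, without young replicate 3 or without aged replicate 4, 2 members were called. All genes called fell to 258 without young replicate 2 and to 321 without aged replicate 4. The count without young replicate 3 is not given here. With spike-in factors as the scale, the median of all genes moved to 1.18 and 8839 genes were called, among them all 10 members, as higher. Cideb at 1.03 and Pnpla2 at 1.001 were included, both under that median and both below 0 on the DESeq2 scale.

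Middle-aged livers differed from young ones in 1 member, Fitm1, which was higher, where 6.41% of 11333 genes passed (3.51% higher and 2.9% lower). No member was called without young replicate 2, without young replicate 3 or without middle-aged replicate 2. In those fits 349, 409 and 345 genes passed, against 727 with all livers. With spike-in factors 9 were called, among 11624 genes called in all. The edgeR test called 280 genes and 0 members (1 at an unadjusted p under 0.05, again Fitm1). By limma-voom Fitm1 was called, and its count of all genes called is not given here either. All 10 members overlapped between these ages, where 7.84% of genes stood higher and 7.75% lower without overlap, and the members' median log2 fold change was 0.35. Aged livers differed from middle-aged ones in 0 members by DESeq2, with 5 at an unadjusted p under 0.05, where 1.14% of 10236 genes passed. The edgeR and limma-voom tests called 0 members as well, where 13 and 58 genes passed. Each had 3 members at an unadjusted p under 0.05 (Plin2, Plin5 and G0s2). All 10 members overlapped here too, where 3.08% of genes stood higher and 3.08% lower without overlap. Pnpla3 received no adjusted p in the comparisons with middle-aged livers because of its low count. Across the 3 ages in 1 likelihood ratio test by DESeq2, Plin2 (adjusted p = 0.0166), Cidea (0.00986) and Fitm1 (0.00321) passed, where 6.96% of genes did.

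**Figure D1:**
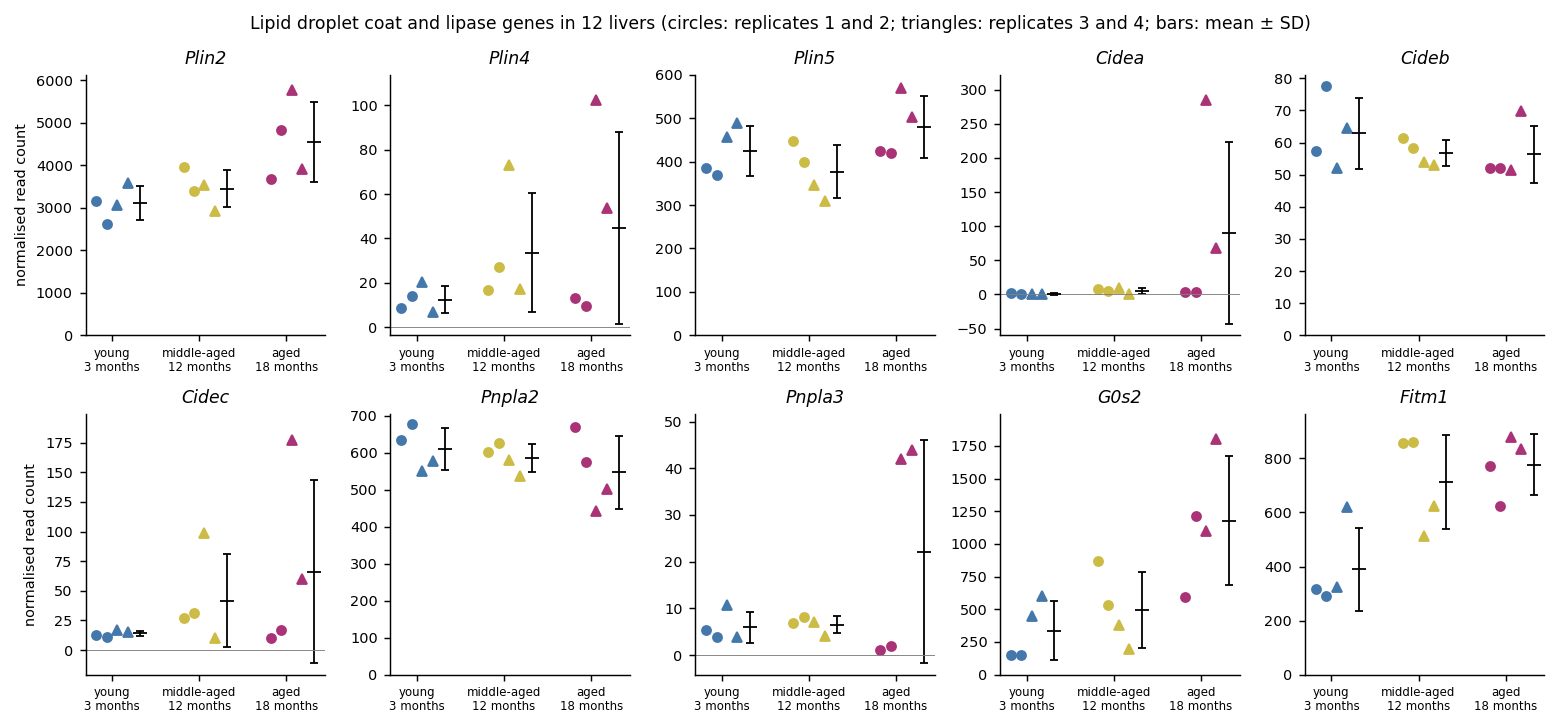
Normalised read count of each of the 10 genes (vertical axes, from 0 or below where the SD bar extends there) in each liver by age, with circles for replicates 1 and 2, triangles for replicates 3 and 4, and bars for mean ± SD of 4 livers. Cidea and Pnpla3 were highest in aged replicates 3 and 4, Plin4 and Cidec in aged replicate 3 followed by middle-aged replicate 3, while Plin2 and Fitm1 lay higher in all 4 aged livers than in any young liver.

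Plin2, the main perilipin of hepatocytes, lies at chr4:86648386-86670060 on the minus strand (GRCm38). Normalised counts in replicates 1 to 4 were 3153, 2607, 3068 and 3580.0 in young livers, 3968, 3384, 3530.2 and 2915 in middle-aged livers and 3678, 4821, 5768 and 3917 in aged livers. The lowest aged liver stood just above the highest young one, and the middle-aged livers overlapped both. From young to aged livers Plin2 rose by 0.55 on the log2 scale (SE 0.15, DESeq2 adjusted p = 0.0140). The difference was 0.57 within replicates 1 and 2 and 0.54 within replicates 3 and 4, with adjusted p of 0.188 and 0.0342 by DESeq2. By edgeR the adjusted p was 0.0829, and by limma-voom 0.0603. Without young replicate 2 or 3, or aged replicate 2 or 3, the DESeq2 adjusted p was 0.0942, 0.0516, 0.0617 and 0.101.

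Plin4, a perilipin best known from fat and muscle, lies at chr17:56100591-56109803 on the minus strand, with 1797 bases between it and Plin5. In replicates 1 to 4 normalised counts were 8.49, 14.0, 20.1 and 6.83 in young livers, 16.9, 26.9, 73.3 and 17.04 in middle-aged livers and 13.0, 9.63, 102 and 53.6 in aged livers. Aged replicates 3 and 4 and middle-aged replicate 3 were high, and aged replicates 1 and 2 lay within the young range. The log2 fold change from young to aged was 1.86 (SE 0.71, DESeq2 adjusted p = 0.125). It was 0.02 within replicates 1 and 2 and 2.55 within replicates 3 and 4, the latter with an adjusted p of 0.0126 by DESeq2.

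Plin5, the perilipin of oxidative tissues that ties droplets to mitochondria, lies at chr17:56111601-56117596 on the minus strand. Plin5 had normalised counts of 385, 369, 456 and 489 in young livers, 449, 400.4, 347 and 309.7 in middle-aged livers and 425, 419, 571 and 504 in aged livers. All ages overlapped. Log2 fold changes of 0.17 (SE 0.15, DESeq2 adjusted p = 0.642) from young to aged and 0.35 (SE 0.15, adjusted p = 0.341) from middle-aged to aged livers did not pass the test. The latter was -0.0073 within replicates 1 and 2 and 0.72 within replicates 3 and 4.

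Cidea, which promotes the growth of large droplets and is best known from brown fat, lies at chr18:67343604-67367785 on the plus strand. Normalised counts of Cidea were 2.12, 0, 1.18 and 0 in young livers, 7.94, 4.49, 8.83 and 0 in middle-aged livers and 3.01, 3.85, 284 and 67.9 in aged livers. Aged replicates 3 and 4 carried nearly all reads, and aged replicates 1 and 2 lay just above the young livers and within the middle-aged range. The fitted log2 fold change from young to aged was 6.75 (SE 1.69, DESeq2 adjusted p = 0.00485). Summed reads were 408 in aged and 3 in young livers, a depth-scaled ratio of 114 with an exact 95% interval of 38.7 to 554 that covers counting error only. Within replicates 1 and 2 the log2 fold change was 1.63 (SE 1.86) with no adjusted p, and within replicates 3 and 4 it was 8.30 (SE 2.58, DESeq2 adjusted p = 0.0342). Without aged replicate 3 or without aged replicate 4 DESeq2 gave Cidea no adjusted p.

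Cideb, the CIDE protein of hepatocytes that also takes part in VLDL lipidation, lies at chr14:55754050-55758458 on the minus strand. Normalised counts stayed between 51.6 and 77.7 in all 12 livers. The ages overlapped, and the log2 fold change from young to aged was -0.15 (SE 0.20, DESeq2 adjusted p = 0.799). Of its 1488 exonic bases, 1136 overlap exons of Nop9 on the opposite strand, and whether reads were counted by strand is not given in the sources used here, so reads of the pair cannot be told apart.

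Cidec, which drives lipid transfer at droplet contacts, lies at chr6:113424634-113435760 on the minus strand. Cidec had normalised counts of 12.7, 11.5, 16.6 and 15.6 in young livers, 26.8, 31.4, 98.9 and 10.02 in middle-aged livers and 10.04, 17.3, 177 and 59.9 in aged livers. The order of livers resembled that of Plin4, with aged replicates 3 and 4 and middle-aged replicate 3 at the top. The log2 fold change from young to aged was 2.23 (SE 0.76, DESeq2 adjusted p = 0.0755). It was 0.18 within replicates 1 and 2 and 2.88 within replicates 3 and 4.

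Pnpla2, also called adipose triglyceride lipase, lies at chr7:141455198-141460743 on the plus strand. Normalised counts of Pnpla2 were 634, 678, 551 and 577 in young livers, 602, 626, 579 and 536 in middle-aged livers and 669, 574, 442 and 501 in aged livers. The ages overlapped, with the lowest values in aged replicates 3 and 4. Log2 fold changes were -0.16 (SE 0.13, DESeq2 adjusted p = 0.614) from young to aged and -0.06 (SE 0.13, adjusted p = 0.850) from young to middle-aged livers.

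Pnpla3, a lipase relative found on droplets, lies at chr15:84167837-84187236 on the plus strand and shares 105 exonic bases with Gm49513 on the same strand. Its normalised counts were 5.31, 3.82, 10.66 and 3.91 in young livers, 6.95, 8.08, 7.06 and 4.01 in middle-aged livers and 1.004, 1.93, 41.9 and 43.8 in aged livers. Aged livers held both the lowest and the highest values, replicates 1 and 2 below every young liver and replicates 3 and 4 above all others. The log2 fold change from young to aged was 1.91 (SE 0.91, DESeq2 adjusted p = 0.259). Within replicates 1 and 2 it was -1.64 (SE 1.57), and within replicates 3 and 4 it was 2.58 (SE 0.85, adjusted p = 0.0530 by DESeq2).

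G0s2, the small protein that binds and inhibits Pnpla2, lies at chr1:193272161-193273217 on the minus strand. The normalised counts of G0s2 were 146, 149, 450.3 and 598 in young livers, 873, 534, 376 and 192 in middle-aged livers and 597, 1211, 1098 and 1799 in aged livers. Only aged replicate 1 overlapped the young livers, whose replicates 3 and 4 were higher than replicates 1 and 2. The log2 fold change from young to aged was 1.81 (SE 0.58, DESeq2 adjusted p = 0.0504), which just missed the threshold. With TMM factors in DESeq2 the adjusted p was 0.0428, and by limma-voom 0.0493, while edgeR gave 0.0919. Within replicates 1 and 2 the difference was 2.62 (SE 0.32, DESeq2 adjusted p = 3.22e-13), and within replicates 3 and 4 it was 1.46 (SE 0.50, adjusted p = 0.0721). From young to middle-aged livers the log2 fold change was 2.25 within replicates 1 and 2 and -0.89 within replicates 3 and 4. This difference of -3.13 (SE 0.70) had an adjusted p of 0.00316 in a DESeq2 interaction test that called 0.423% of 13005 genes. Fitm1 (-1.24, SE 0.35, DESeq2 adjusted p = 0.0654) and Plin5 (-0.69, SE 0.23, adjusted p = 0.290) did not pass there, with unadjusted p under 0.05. From young to aged livers the same DESeq2 test called 0 members and 0.732% of 10799 genes at an adjusted p under 0.05. Pnpla3, with a difference of 4.23 (SE 1.46), received no adjusted p there and so could not be called. In that test 4 members (Plin4, Cidea, Cidec and Pnpla3) had an unadjusted p under 0.05, a level at which the share of all genes was not counted.

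Fitm1, which moves triglyceride into nascent droplets and is best known from muscle, lies at chr14:55575617-55576954 on the plus strand and shares 109 exonic bases with Gm15932 on the opposite strand. Its normalised counts were 318, 292, 326 and 619.9 in young livers, 857, 862, 511 and 622 in middle-aged livers and 771, 622, 878 and 837 in aged livers. Young replicate 4 stood apart from the other young livers and just below the lowest aged liver. Young replicate 3 and middle-aged replicate 3, the livers with muscle transcripts, had 326 and 511. The part of muscle RNA in the Fitm1 values was not tested. Fitm1 rose by 0.996 (SE 0.24, DESeq2 adjusted p = 0.00291) from young to aged and by 0.87 (SE 0.24, adjusted p = 0.00961) from young to middle-aged livers on the log2 scale. The edgeR adjusted p was 0.0512 and 0.0651. The difference to aged livers was 1.19 within replicates 1 and 2 and 0.85 within replicates 3 and 4, with DESeq2 adjusted p of 5.28e-06 and 0.0128. The difference to middle-aged livers was 1.49 and 0.25, with adjusted p of 9.16e-10 and 0.741 by DESeq2.

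**Figure D2:**
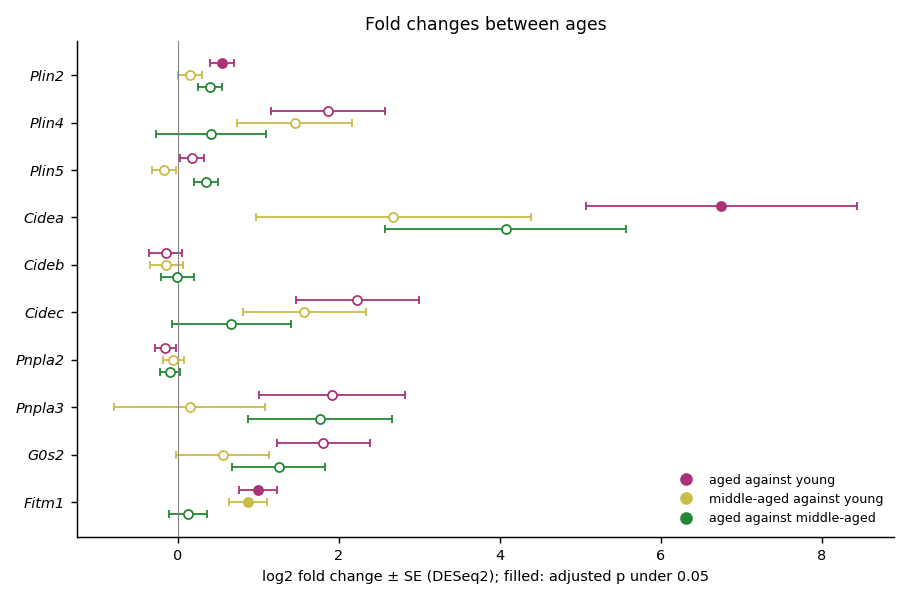
Log2 fold change ± SE by DESeq2 (horizontal axis) of each of the 10 genes (vertical axis) in the comparisons of aged with young, middle-aged with young and aged with middle-aged livers, filled where the adjusted p was under 0.05. Filled points are Plin2, Cidea and Fitm1 for aged against young and Fitm1 for middle-aged against young.

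Levels per kilobase of exon placed Plin2 first in young livers at 883 ± 114 normalised counts per kilobase (SD, n = 4), above Fitm1 without overlap. Fitm1 (401 ± 159), G0s2 (386 ± 259), Plin5 (204 ± 27.3) and Pnpla2 (202 ± 18.8) followed, each neighbour overlapping the next. Cideb (42.3 ± 7.44) came below them without overlap, and Cidec (7.60 ± 1.29), Pnpla3 (3.83 ± 2.09), Plin4 (2.14 ± 1.04) and Cidea (0.742 ± 0.923) were lowest. In aged livers G0s2 (1350.5 ± 567) and Plin2 (1294 ± 271) overlapped at the top, and Cidea (80.5 ± 119) had moved above Cideb (37.9 ± 5.99) with overlapping ranges. G0s2 thus stood at a higher level per kilobase than its target Pnpla2 (181 ± 32.4 in aged livers) in the mean of every age, and in each middle-aged and aged liver, but in only 2 of the 4 young livers.

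Adipocyte RNA was measured directly beside Plin4, Cidea and Cidec, which fat cells also express. In middle-aged replicate 3, high for Plin4 and Cidec, Adipoq had 101 reads, Plin1 96 and Lep 14. In aged replicates 3 and 4, Adipoq and Lep had 0 reads each, and Plin1 had 0 and 1. The summed normalised count of the 6 adipocyte markers was 18.4 and 10.73 in those livers, most of it Cfd (17 and 10 reads), and 0.963 to 4.01 in aged replicates 1 and 2. Fabp4 and Car3, the other 2 of the 8 adipocyte markers, were counted in every liver, and Car3 is also expressed by hepatocytes. The sum of all 8, nearly all of it Car3, was 36926 and 41229 in aged replicates 3 and 4, 20545 in middle-aged replicate 3 and 21720 to 36048 in the other livers. Car3 was thus highest in the aged livers that were high for Plin4, Cidea and Cidec, and its part in these results was not tested. Without both livers carrying muscle and adipocyte transcripts Cidea and Fitm1 remained called, and Plin2 had an adjusted p of 0.0782 by DESeq2. This setting was chosen after seeing the data. The livers left out held 1 and 10 reads of Cidea, while aged replicates 3 and 4, with 325 and 76, stayed in. That fit therefore could not test the part of adipocyte RNA in the Cidea call.

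Cyp4a14 and Vnn1, targets of PPAR alpha, the receptor that switches on fat oxidation in fasting, were highest in the same aged livers. Normalised counts of Cyp4a14, a fatty acid hydroxylase, were 20.1, 113, 3452 and 1204 in aged replicates 1 to 4, and those of Vnn1, a pantetheinase, were 59.2, 165, 659 and 337. Of 14 such targets, 5 rose and none fell from young to aged livers, and of 12 clock genes 1 rose and none fell, where 3.58% of all genes tested passed. From young to middle-aged livers 1 of 13 targets tested rose, and of 11 clock genes tested 4 rose and 1 fell, where 6.41% of all genes passed. From middle-aged to aged livers 3 clock genes rose and 4 fell, of 10 tested, where 1.14% of all genes passed. Dbp, an output gene of the circadian clock, was at 173, 157, 18.4 and 52.7 in aged livers and Npas2, a clock activator, at 19.1, 19.3, 83.0 and 47.4. These genes were picked for display after their values were seen. The part of feeding state or clock phase in the values of Plin4, Cidea, Cidec and Pnpla3 was not tested.

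**Figure D3:**
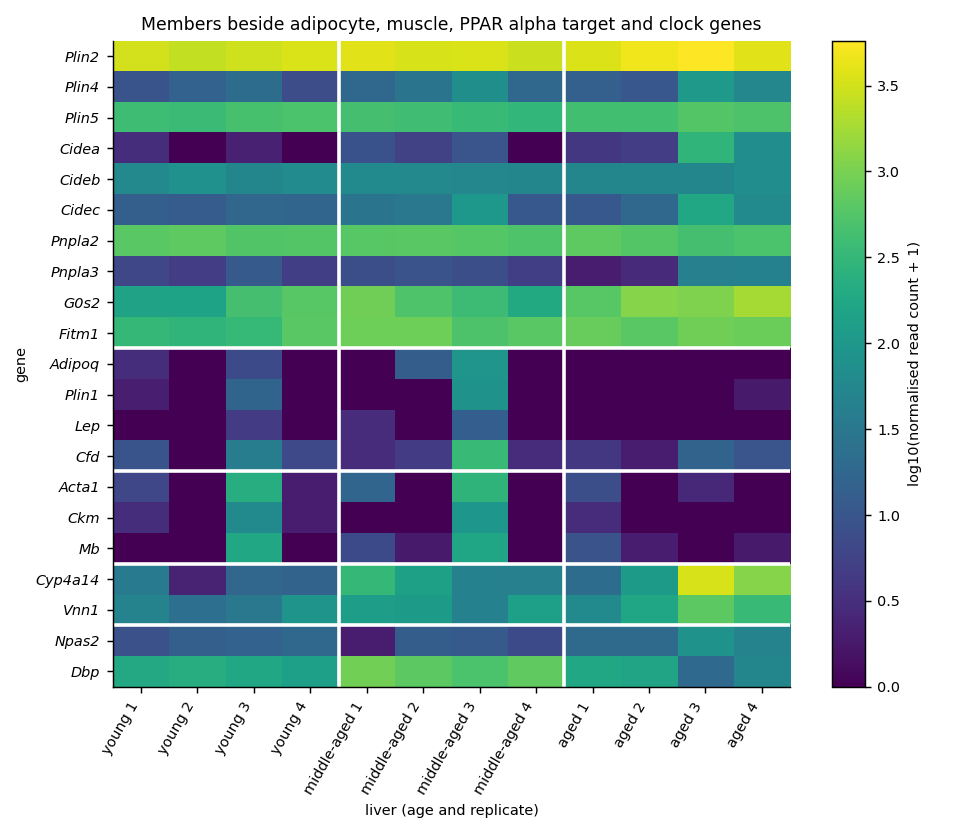
Heat map of log10(normalised read count + 1) for the 10 genes and for adipocyte (Adipoq, Plin1, Lep, Cfd), skeletal muscle (Acta1, Ckm, Mb), PPAR alpha target (Cyp4a14, Vnn1) and clock genes (Npas2, Dbp) in rows, with the 12 livers in columns by age and replicate. Aged replicates 3 and 4 were high for Plin4, Cidea, Cidec, Pnpla3 and Cyp4a14 and low for Dbp, and middle-aged replicate 3 was high for the adipocyte and muscle genes.

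Covariation from liver to liver was examined after subtracting each age's mean of log2(normalised count + 1). Of 45 pairs of members, 35 had a positive Pearson correlation over the 12 livers. None passed an adjusted p of 0.05 in exact permutation tests within ages (13824 permutations, two-sided, Benjamini-Hochberg over the 45 pairs), and 10 had an unadjusted p under 0.05. Cidea and Cidec gave r = 0.91 (exact permutation p = 0.00492, adjusted p = 0.104) and rho = 0.86 (p = 0.0187, adjusted p = 0.204). Without aged replicates 1 and 3, the livers farthest from the median of Cidea, r was 0.80, and it was 0.20 within replicates 1 and 2 and 0.96 within replicates 3 and 4. Pnpla2 and its inhibitor G0s2 gave r = -0.35 (exact permutation p = 0.244, adjusted p = 0.407) and rho = -0.23 (p = 0.490, adjusted p = 0.689). For this pair r was -0.28 without aged replicates 1 and 3, -0.86 within replicates 1 and 2 and 0.93 within replicates 3 and 4. For both pairs, an r within a set had 2 livers per age, whose deviations from their mean mirror each other. Each age then adds only 1 difference, too few to tell such values apart. Without middle-aged replicate 3, and likewise without middle-aged replicate 4, 1 pair passed, Plin5 with Fitm1 (r = 0.76 and 0.77, exact permutation adjusted p = 0.0260 in both).

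Genes whose levels over the 12 livers were most like a member's were sought among 8887 genes by Pearson's r of regularised log values, age differences included. For Plin2 they included Btd (r = 0.92) and Zfp777 (0.88). For Fitm1 they were Hadh, an enzyme of fatty acid oxidation (0.94), Bdh1, an enzyme of ketone body metabolism (0.92), and Olig1 (0.91). For G0s2 they were Frat1 (0.93), Fahd1 (0.92) and Usp6nl (0.92), and for Pnpla2 Acy3 (0.96), Slc46a1 (0.96) and Dtnb (0.93). Plin5 was most like Fabp2 (0.91), Mphosph10 (0.89) and Pnkd (0.88), and Cideb most like Rtp4 (0.89), Brcc3 (0.88) and Traf7 (0.88).

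Among other genes of lipid storage and breakdown, the lipases and esterases held most of the changes. Of 15 such genes, all tested, 4 rose and 1 fell from young to aged livers, where 3.58% of all genes tested passed. From young to middle-aged livers 5 rose and 2 fell, where 6.41% passed. Calls over all 5 pathway lists depended on single livers. For aged against young they numbered 8, but 4 without young replicate 2, 5 without aged replicate 3 and 18 without aged replicate 1. All genes called moved as well, from 484 with all livers to 258, 237 and 1291 in those fits. For middle-aged against young the list calls numbered 10, but 4 without young replicate 2 or middle-aged replicate 2 or 4. They numbered 5 without young replicate 3 and 6 without middle-aged replicate 3. All genes called went from 727 with all livers to 349, 345, 389, 409 and 430 in those fits, in that order. Ces1e, a carboxylesterase, rose by 1.05 (SE 0.19) and 0.96 (SE 0.19) on the log2 scale, with DESeq2 adjusted p of 2.54e-05 and 0.000124. Lipa, the lysosomal acid lipase, rose by 0.61 and 0.44, Ces1f by 0.53 and 0.48, and Mgll, which cleaves monoacylglycerol, by 0.45 and 0.38. Abhd5 fell by 0.57 and 0.59 (DESeq2 adjusted p = 0.0469 and 0.0263). Its normalised counts were 425, 285, 353 and 246 in young, 226, 186, 222 and 235 in middle-aged and 175, 208, 262 and 233 in aged livers. Every middle-aged liver lay below every young one, while aged replicate 3 overlapped the young range. With spike-in factors as the scale, Abhd5 was higher in aged (0.52) and in middle-aged livers (0.79). In middle-aged livers Pnpla8 rose by 0.25 and Pnpla7 fell by 0.30.

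Triglyceride synthesis genes showed 2 falls and no rise among 15 genes, 14 of them tested, from young to aged livers. Lpin1, a phosphatidate phosphatase that also acts as a coactivator of PPAR alpha, fell by 1.95 (SE 0.36, DESeq2 adjusted p = 3.36e-05), and Lpin2 fell by 0.63 (SE 0.19, adjusted p = 0.0285). Lpin1 had normalised counts of 1739, 2852, 837 and 1138 in young livers and 441, 517, 297 and 439.8 in aged livers, with no overlap. Lpin2 was also the only gene of the lipid storage and breakdown lists called between middle-aged and aged livers, falling by 0.71 (adjusted p = 0.0216 by DESeq2). Dgat1 and Dgat2, which complete triglyceride synthesis, had log2 fold changes of -0.16 and 0.07 from young to aged livers and did not pass.

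Other droplet proteins numbered 12, with 11 tested in each comparison with young livers. Of these Hsd17b11 alone rose in aged (0.31) and Cav1 alone in middle-aged livers (0.94). Plin3, the perilipin found in most tissues, had a log2 fold change of 0.05 in aged livers. Plin1 had reads almost only in the livers with adipocyte transcripts and received no adjusted p. The 8 genes of VLDL assembly held no call in any comparison by DESeq2. Of 12 transcription regulators, none was called in aged livers, while Ppara rose by 0.76 and Srebf1 by 0.81 in middle-aged livers. For Ppara the log2 fold change in aged livers was 0.54 (SE 0.25, DESeq2 adjusted p = 0.233), and Lipe, hormone-sensitive lipase, stood at -0.05.

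**Figure D4:**
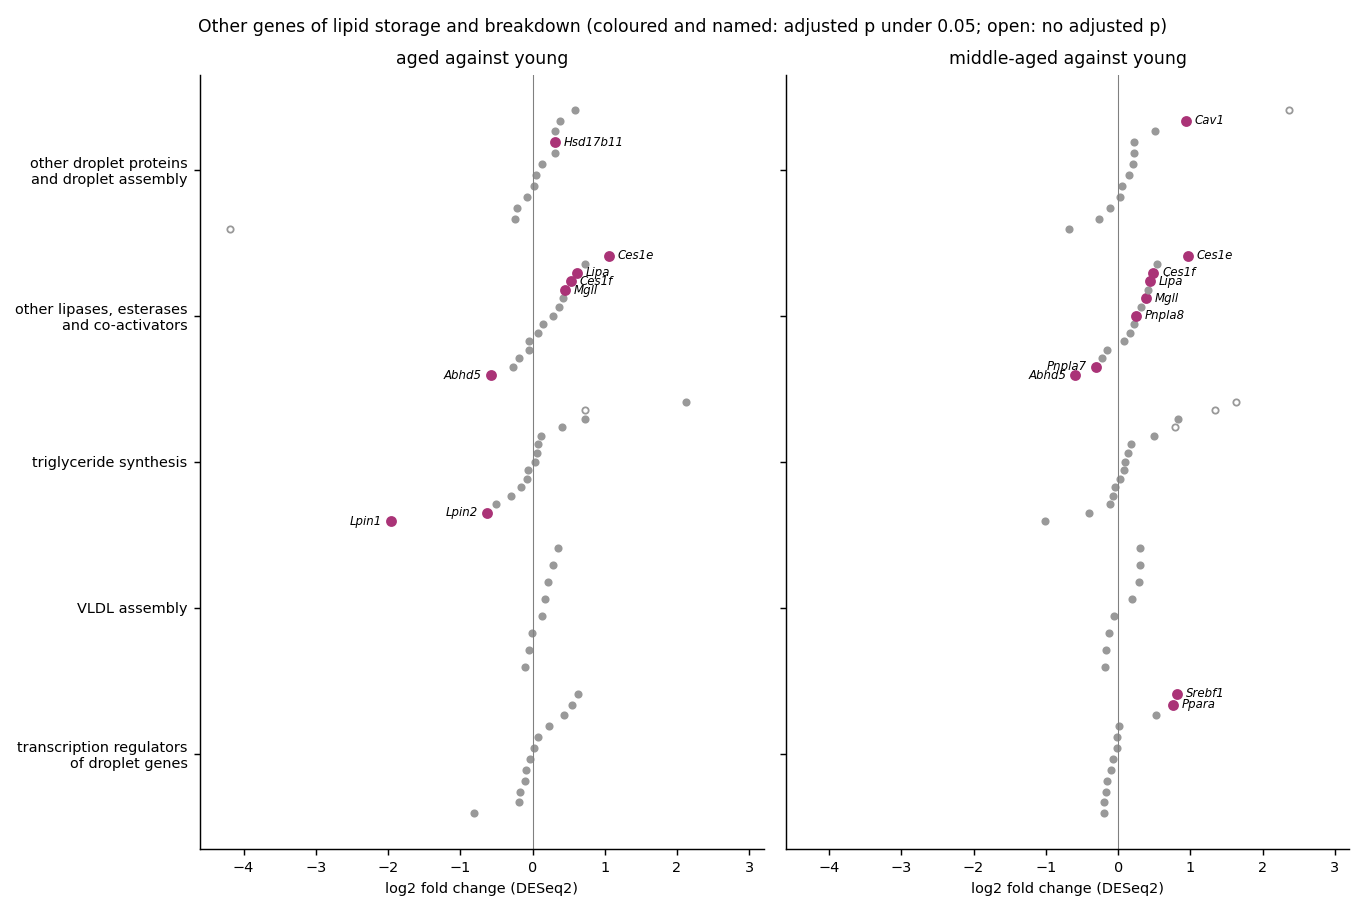
Log2 fold change by DESeq2 (horizontal axis) of the other genes of lipid storage and breakdown, in 5 lists (vertical axis) and 2 comparisons, coloured and named where the adjusted p was under 0.05 and open where no adjusted p was given. Among the coloured points the largest are Ces1e above 0 in both panels and Lpin1 below 0 in aged livers.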

How the data were processed

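Liver RNA-seq of 12 libraries was analysed as 1 table of whole-number read counts per gene that the authors deposited without normalisation. The submitters' processing notes name STAR 2.5.2b, SAMtools 1.9, featureCounts, R 3.6.3, edgeR 3.28.1 and DESeq2 1.26.0 with mm10/GRCm38, without roles; counting by strand is not given in the sources used here. Age and replicate came from the sample titles. Of 53465 gene identifiers, 53360 were found in GENCODE M21. Rows of 92 spike-in transcripts were left out of gene tests and library sizes.

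Counts were fitted with DESeq2 1.42.0 (R 4.3.3) over all 12 livers with age as the only factor: Wald tests for the pairs of ages, a likelihood ratio test across ages, Benjamini-Hochberg adjustment over all genes tested and a threshold of 0.05. Normalised counts are counts divided by size factors. Alternatives were edgeR 4.0.16, limma-voom (limma 3.58.1) with sample quality weights, TMM, total-count and spike-in factors, a filter of 10 counts in 4 livers, no independent filtering, fits of the groups compared, a replicate block, a term for the spike-in set, fits inside each set, and each liver left out. The fits were tested on 1 simulated table with the same spread for every gene, no outlying livers and no spike-in sets. Changes were planted only in genes averaging 50 counts or more, above the mean of Cidea. There the share of false calls by DESeq2 was above its nominal level and those of edgeR and limma-voom lay nearer to it. How far this holds for the livers was not tested. Plin2 was called by DESeq2 and by neither other tool, and Cidea was too low to be fitted by them. Pairs of members were compared by exact permutation. Libraries of 1 age differed beyond sampling noise (smallest chi-square per gene 11.2 over 8888 genes). Intervals cover counting error only. Each library was taken as 1 animal, which the sample titles do not state. On that reading p-values measure the spread between animals as well as preparation.

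The members and lists were chosen with earlier results of these data known. All members are named. Other pathway genes are named where their adjusted p was under 0.05 in any pair of ages, with Abhd5, Lipe, Mgll, Plin1, Plin3, Dgat1, Dgat2 and Ppara named whatever their values; likeness names the 3 genes of highest r for members whose normalised counts averaged 50 or more, of which 1 is not reported here. Other marker lists (Kupffer cell, stellate cell, sinusoidal endothelium, cholangiocyte and B cell) held 0 or 1 call per comparison by DESeq2.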

Additional observations from a re-analysis of the deposited data

Results flagged for a closer look

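Among 30 groups of 4 livers (10 genes at 3 ages), 2 held a liver far from the rest, and chance alone marks about 1 in 20 such groups. Aged replicate 4 had a normalised count of 69.7 for Cideb, above the other 3 aged livers. Young replicate 4 had 619.9 for Fitm1, above the other 3 young livers.

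The change of G0s2 from young to middle-aged livers differed between the spike-in sets, by -3.13 on the log2 scale (replicates 3 and 4 minus replicates 1 and 2) in the DESeq2 interaction test. Spike-in transcripts, which were left out of the gene tests and used only to define the sets and as an alternative scale, made up 1.59% of counts in the library with the fewest.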

How the results depend on the processing

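Counts of calls moved with the test and the scale. With edgeR's quasi-likelihood test, 172 genes passed for aged against young, 280 for middle-aged against young, 13 for aged against middle-aged and 234 across the 3 ages, and 0 members passed in each. With limma-voom 58 genes passed for aged against middle-aged, where Cideb turned to 0.062. Total counts as the scale gave 787 genes for aged against young, and turned Lipe there to 0.074 and Pnpla2 for middle-aged against young to 0.057. Spike-in factors moved the median log2 fold change of all genes to 1.18 for aged livers and 1.503 for middle-aged livers, each against young ones, and to -0.33 between aged and middle-aged livers. They gave 8839, 11624 and 3 genes in that order and 10455 across the 3 ages, with 10 members for aged against young, 9 for middle-aged against young and 10 across the 3 ages. On that scale the aged against young values became 1.03 for Cideb, 1.001 for Pnpla2, 0.52 for Abhd5, 1.14 for Lipe, 0.48 for Lpin2 and 1.01 for Dgat1. For middle-aged against young they became 1.35 for Plin5, 1.42 for Cideb, 1.45 for Pnpla2, 0.79 for Abhd5 and 1.18 for Pnpla7, and for aged against middle-aged -0.011 for Plin5 and -0.26 for Fitm1. Without independent filtering 321, 443 and 62 genes passed in that order, in part because more genes were tested. Fits of only the groups compared gave 290 genes for aged against young and 1166 for middle-aged against young.

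Replicate numbers do not pair these livers, which were taken as different animals (correlations of same-numbered livers from -0.30 to 0.16). With the replicate number as a block, 385 genes passed for middle-aged against young, 426 for aged against middle-aged and 451 across the 3 ages, with 1 member across the 3 ages; calls of members in the pairs of ages did not change. Within replicates 1 and 2, 137, 251 and 34 genes passed in the same order and 270 across the 3 ages, with 2 members for middle-aged against young. Values there for aged against young were -1.64 for Pnpla3, -0.059 for Plin3 and -0.074 for Dgat2, and 0.17 for Plin5 for middle-aged against young. For aged against middle-aged they were -0.95 for Plin4, -0.0073 for Plin5, -0.85 for Cidea, -1.08 for Cidec, 0.020 for Pnpla2, -2.35 for Pnpla3 and -0.30 for Fitm1. Within replicates 3 and 4, 305 genes passed for middle-aged against young with 0 members, 307 for aged against middle-aged with 4 members, and 6 members passed across the 3 ages. Cideb was at 0.051 for aged against young and 0.19 for aged against middle-aged, and for middle-aged against young Plin2 was at -0.055, Pnpla3 at -0.37 and G0s2 at -0.89.

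Leaving out each liver in turn gave 237 to 1291 genes and 1 to 7 members for aged against young, 345 to 1095 genes and 0 to 1 members for middle-aged against young, 45 to 198 genes and 0 members for aged against middle-aged, 503 to 1637 genes and 1 to 6 members across the 3 ages, and 0 to 1 correlated pairs. Signs turned in some of these fits, with values of -0.0021 to 0.11 for Plin3, -0.16 to 0.064 for Lipe and -0.011 to 0.15 for Dgat2 for aged against young, and -0.014 to 0.59 for Pnpla3 for middle-aged against young. For aged against middle-aged they were -0.13 to 0.036 for Cideb, -0.0092 to 0.23 for Fitm1, -0.40 to 1.14 for Plin4 and -0.52 to 1.54 for Cidec. Without both livers carrying adipocyte and muscle transcripts, a setting chosen after seeing the data, 285, 241 and 47 genes passed in the same order and 408 across the 3 ages with 1 member; Plin3 was at -0.0034 and Fitm1, for aged against middle-aged, at -0.0087. With deviations from age and set means, r of Pnpla2 and G0s2 was 0.00089. The cause of these differences was not tested. Low counts of Cidea and Pnpla3 limit what can be said of them at this depth.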
